A study of Mus musculus with 32 samples.

Results

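Mouse embryonic stem cells (ESC) of 4 clones were compared by RNA-seq. In MD clones 45 and 47 the gene Smarce1 carries a tag called MD, and in R42A clones A01 and A02 the same tag carries the substitution R42A. These 4 clones make up the second run of ESC libraries, which was recognised from consecutive library numbers in the labels. Each clone gave 3 libraries, so 12 of the 32 libraries of the series were used, 6 for each genotype. All cells were untreated 129S5/SvEvBrd ESC kept with serum and LIF on gelatin. Every clone, the R42A controls included, carries a tagged Smarce1, so no untagged cells enter the comparison. The first run of ESC libraries, with other clones of both genotypes and 12 libraries, is used only for values set side by side. With 2 clones per genotype, the clone was taken as the replicate, and a difference between clones and a difference between genotypes are measured on few lines. The labels do not say whether the numbered libraries of a clone came from separate cultures.

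Smarce1 encodes BAF57, a DNA-binding subunit of SWI/SNF (BAF), a complex that uses ATP to move nucleosomes and open enhancers and promoters. Here MD is taken for the cyclin B1 mitotic degron, which has a protein destroyed at the end of mitosis, and R42A for its inactive form. That reading is general knowledge and is not spelled out in the labels. ESC in serum and LIF express a naive network built on OCT4, SOX2, NANOG, ESRRB and KLF4, and on leaving it they pass through a formative state marked by Dnmt3b, Otx2, Pou3f1 and Fgf5. Interferon-stimulated genes, contractile genes driven by serum response factor (SRF), and germline genes are mostly low or silent in such cells.

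The MD libraries held 38699951 to 55463751 counts (median 47731148) and the R42A libraries 43278453 to 54342163 (median 46769991), with 24780 to 25659 and 24787 to 25204 genes detected. Expected counts were summed over the 3 libraries of a clone and tested with edgeR, 2 clones against 2. Levels below are CPM, counts relative to the total of the library, log2 changes are MD less R42A with an approximate standard error (SE), and a gene is called when its adjusted p is under 0.05. The median absolute log2 ratio between libraries was 0.165 within a clone (0.130 to 0.240). It was 0.219 between libraries of different MD clones, 0.202 between those of different R42A clones and 0.357 between genotypes (0.319 to 0.398), so libraries of different genotype were always farther apart than libraries of one clone. The 8 ESC markers summed to 4360 to 5220 CPM in the MD libraries and 5430 to 5910 CPM in the R42A libraries. Markers of endothelium and blood summed to 12.1 to 16.6 against 11 to 14.7 CPM, and those of primitive and visceral endoderm to 2.67 to 6.61 against 3 to 7.55 CPM. Hbb-bh1, Ptprc, Afp and Ttr were too low to be tested.

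MD and R42A clones differed at 4898 of the 21020 genes tested by edgeR, a share of 23.3%. In MD, 2641 genes (12.6%) were higher and 2257 (10.7%) lower, of which 1265 and 781 changed at least 2-fold and 449 and 153 at least 4-fold. The shares of 12.6% and 10.7% are the background for each gene list below. On simulated data the share of false calls among all calls was above the nominal threshold. More of the called genes, here and in the lists, may therefore be false than the threshold implies. All 6 MD libraries lay above all 6 R42A libraries at 2775 genes (13.2%) and below them at 2436 (11.6%). Among the called genes, 4040 (82.5%) separated all libraries in this way. Calls were a larger share of highly expressed genes, 30.3% of those at 100 CPM or more against 17.1% of those under 1 CPM. Changes of at least 2-fold were the reverse, 1.12% against 16.6%. Protein-coding genes were called more often (26.6%) than long noncoding RNAs (17.7%) or processed pseudogenes (8.01%). The share was larger, 34.5%, for the 174 unprocessed pseudogenes tested. A fit without 1 of the 4 clones leaves 1 clone on one side, so its spread comes only from the 2 clones of the other genotype. Calls lost in such a fit, here and below, can follow from that pair or from fewer clones. They do not show that a difference rests on the clone left out.

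**Figure D1:**
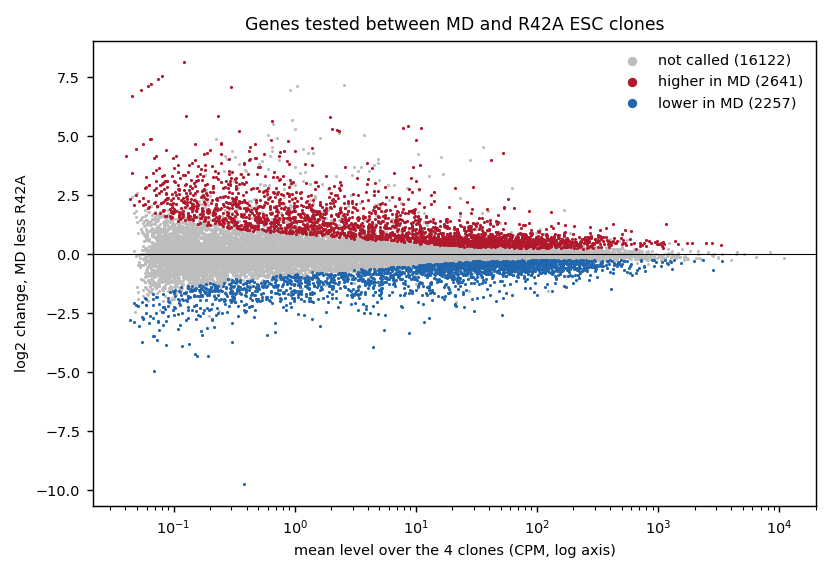
Each point is one of the 21020 tested genes, with its mean level over the 4 clones on a log axis and the log2 change of MD against R42A on the other. Red marks the 2641 genes called higher and blue the 2257 called lower; large changes lie mainly at low levels.

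Smarce1 RNA was at 120.3 and 113 CPM in MD clones 45 and 47 against 107 and 91 CPM in R42A clones A01 and A02 (log2 change 0.24 ± 0.10, edgeR adjusted p = 0.112). Libraries of the 2 groups overlapped, from 106 to 125 CPM in MD and from 87.5 to 109 CPM in R42A, and with each chromosome scaled on its own the difference turned to -0.27. It passed the threshold with single libraries as replicates (0.24, edgeR adjusted p = 0.0069) and in limma with clone as a random block (0.24, adjusted p = 0.0258). A degron acts on the protein, so RNA is no check of it. Of 27 SWI/SNF subunits tested, Smarce1 included, 3 (11.1%) were higher and 5 (18.5%) lower, beside 12.6% and 10.7% of all genes. The median log2 change was 0.00 beside 0.00 over all genes. Smarcd3, a subunit used in heart and neural development, was lower at 4.2 and 3.96 against 8.71 and 9.57 CPM (log2 change -1.17 ± 0.17, edgeR adjusted p = 0.00243). Its paralog Smarcd1, the main form in ESC, was lower at 144 and 133 against 195 and 188 CPM (log2 change -0.46 ± 0.08, edgeR adjusted p = 0.00456). Brd7, of the polybromo-containing PBAF form, measured 75.7 and 73.5 against 114 and 104 CPM (log2 change -0.54 ± 0.08, edgeR adjusted p = 0.00318), but lies on chromosome 8 and came to -0.07 (adjusted p = 0.519) after scaling by chromosome. Phf10, another PBAF subunit, was higher at 115 and 104 against 81.8 and 77.4 CPM (log2 change 0.46 ± 0.09, edgeR adjusted p = 0.00706). The other higher members were Smarcd2 (0.34, edgeR adjusted p = 0.0167; -0.18 after scaling by chromosome) and Ss18l1 (0.55, edgeR adjusted p = 0.0253). Without A01 and without A02 the adjusted edgeR p of Ss18l1 was 0.111 and 0.140 (without 45, 0.51, adjusted p = 0.0599) and that of Smarcd2 0.0813 and 0.0791, and Phf10 missed the threshold without A02 (0.42, adjusted p = 0.0518). Subunits called higher numbered 1 without A01 and 0 without A02, and those called lower 3 without A01.

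Most naive pluripotency genes tested were lower in the MD clones. Of 25, 16 were lower and 2 higher, against 10.7% and 12.6% of all genes, with a median log2 change of -0.54. Tbx3, a T-box factor of the naive network, showed the strongest evidence, at 30.2 to 41.7 CPM (median 33.7) in the 6 MD libraries and 74 to 89.4 CPM (median 84.9) in the 6 R42A libraries. The groups did not overlap, and the clone levels were 33 and 36.5 against 82.9 and 84.9 CPM (log2 change -1.27 ± 0.09, edgeR adjusted p = 0.000259). Klf4, a reprogramming factor, was lower at 87.9 and 97 against 189 and 197 CPM (log2 change -1.06 ± 0.08, edgeR adjusted p = 0.000344). Esrrb, an orphan nuclear receptor, ran from 461 to 589.7 CPM (median 498) in the 6 MD libraries and 782 to 886 CPM (median 828) in the 6 R42A libraries, again without overlap (log2 change -0.69 ± 0.08, edgeR adjusted p = 0.00101). Tcl1, an AKT coactivator, was lower at 56.4 and 58.8 against 92.4 and 87.4 CPM (log2 change -0.64 ± 0.08, edgeR adjusted p = 0.00163). Nr0b1, Fgf4, Zfp57 and Tdh also fell, with log2 changes of -0.71, -0.54, -0.75 and -0.53, and kept their call under every alternative run, as did Tbx3, Klf4, Esrrb and Tcl1. The count of lower naive genes was 9 without A01 and between 14 and 20 under the alternatives that used all 4 clones.

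Against that direction, Dppa3, a maternal factor that protects DNA methylation marks in the zygote, was among the genes raised most. It ran from 68.1 to 95.7 CPM (median 75) in the 6 MD libraries and 2.57 to 7.83 CPM (median 5.21) in the 6 R42A libraries. Every MD library exceeded every R42A library by a wide margin (log2 change 3.99 ± 0.28, edgeR adjusted p = 0.00185, 15.8-fold). Pecam1, a surface protein of naive cells, was the other member called higher, at 96.2 and 109.5 against 60.2 and 69 CPM (log2 change 0.67 ± 0.10, edgeR adjusted p = 0.00297), and lies on chromosome 11, where scaling by chromosome left 0.16 (adjusted p = 0.279). Among 10 core pluripotency genes, 2 (20%) were higher (Sall4 and Lin28a) and 1 (10%) lower, beside 12.6% and 10.7% of all genes. The median was -0.11. Higher members numbered 0 without A02 and 1 without A01 or 47, and lower ones 4 without 47 and 0 without 45, A01 or A02. Sox2 was at 319.7 and 383 against 320.1 and 309 CPM (log2 change 0.16 ± 0.10, edgeR adjusted p = 0.276) and Nanog at 573 and 578 against 527 and 657 CPM (log2 change -0.04 ± 0.11, edgeR adjusted p = 0.827), with overlapping libraries. Pou5f1, which encodes OCT4, was lower at 1266 and 1417 against 1712 and 1744 CPM (log2 change -0.37 ± 0.08, edgeR adjusted p = 0.0132), a difference that missed the threshold without clone 45 (-0.29, adjusted p = 0.0641), A01 (-0.38, adjusted p = 0.058) or A02 (-0.35, adjusted p = 0.0585). Lin28a, an RNA-binding protein that blocks let-7 maturation, was higher at 312 and 360.3 against 264 and 228 CPM (log2 change 0.45 ± 0.10, edgeR adjusted p = 0.0173), with adjusted p = 0.0886 without A02. Of 15 genes of the LIF and STAT3 pathway, 3 (20%) were lower and 1 (6.67%) higher, beside 10.7% and 12.6% of all genes. Pim3, a kinase gene induced by STAT3, fell, at 127 and 145 against 204 and 228 CPM (log2 change -0.67 ± 0.10, edgeR adjusted p = 0.00236).

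Among formative and primed genes more were higher than lower. Of 21 tested, 11 (52.4%) were higher and 3 (14.3%) lower, beside 12.6% and 10.7% of all genes, with a median of 0.80. Grhl2, a factor that opens epithelial enhancers in the formative state, was raised in both clones, at 44.7 and 47.1 against 12.2 and 12.4 CPM (log2 change 1.90 ± 0.10, edgeR adjusted p = 9.19e-05), and its libraries ran from 42.6 to 53.3 CPM (median 44.9) in the 6 MD libraries and 10.5 to 13.5 CPM (median 12.6) in the 6 R42A libraries. Dnmt3b, the de novo DNA methyltransferase of this state, was higher at 422 and 329 against 176 and 162 CPM (log2 change 1.15 ± 0.12, edgeR adjusted p = 0.00134). Cldn6, a tight-junction gene of early epithelium, rose from 6.01 and 9.04 CPM to 27.4 and 32.5 CPM (log2 change 1.99 ± 0.21, edgeR adjusted p = 0.00138). Pou3f1, the POU factor OCT6, measured 19.6 and 21.4 against 5.8 and 8.77 CPM (log2 change 1.49 ± 0.20, edgeR adjusted p = 0.00239). Fgf5, the usual formative marker, did not pass, with MD clones that differed from each other, at 4.44 and 0.989 against 0.0858 and 0.192 CPM (log2 change 4.30 ± 0.99, edgeR adjusted p = 0.0509). It passed under 13 of 26 alternatives, among them DESeq2 (adjusted p = 1.2e-08) and the omission of clone 45 (adjusted p = 0.000358) or 47 (adjusted p = 7.68e-10). All 6 MD libraries lay above all 6 R42A libraries. Against the direction of the list, Etv4, an effector of FGF signalling, fell at 113 and 117 against 196 and 199 CPM (log2 change -0.78 ± 0.07, edgeR adjusted p = 0.000671), and Ncam1, a cell adhesion gene, at 17.6 and 13.7 against 27.4 and 26.4 CPM (log2 change -0.78 ± 0.14, edgeR adjusted p = 0.00497). Tcf15, a formative factor, was the third lower member at 20.7 and 33.3 against 67.1 and 56.1 CPM (log2 change -1.19 ± 0.25, edgeR adjusted p = 0.0345), a call lost without A01 (-1.06, adjusted p = 0.235) or A02 (-1.31, adjusted p = 0.143), or without library 2 of clone 47 (-1.12, adjusted p = 0.0747). The higher members numbered 6 without A01 and 6 without A02.

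Neural progenitor genes were higher in 4 and lower in 0 of 18 cases, with a median of 0.95, but 7 of the 18 also differed between the MD clones, as described further on. Zic5, a zinc-finger factor of neural plate, was higher at 44.4 and 37.8 against 26.4 and 24.9 CPM (log2 change 0.68 ± 0.11, edgeR adjusted p = 0.00377). Sox11 followed at 40.6 and 27.2 against 17.1 and 14.4 CPM (log2 change 1.11 ± 0.20, edgeR adjusted p = 0.0127), with adjusted p = 0.0891 without A01 and 0.136 without A02. Sox21 was at 3.79 and 4.61 against 1.78 and 2.33 CPM (log2 change 1.03 ± 0.23, edgeR adjusted p = 0.0149), with adjusted p = 0.131 without A01. The higher members numbered 10 without clone 47 and 2 without A01 or A02. Of 18 neuronal genes, 3 were higher: the neurofilament genes Nefl (39.8 and 32.9 against 23.4 and 21.7 CPM; log2 change 0.69 ± 0.12, edgeR adjusted p = 0.00469) and Nefm (11.3 and 5.18 against 0.904 and 1.13 CPM; log2 change 3.02 ± 0.41, edgeR adjusted p = 0.00416) and the related intermediate filament gene Ina (102 and 126 against 70.8 and 60.4 CPM; log2 change 0.80 ± 0.13, edgeR adjusted p = 0.0045), whose libraries overlapped. Nefm missed the threshold without A01 (2.86, adjusted p = 0.086) or A02 (3.19, adjusted p = 0.0696). Tubb3 and Gap43, 2 other neuronal genes, were lower at 79.7 and 87.6 against 138 and 111 CPM and 17.1 and 14.8 against 23.8 and 22.9 CPM, with overlapping libraries. Gap43 missed the threshold without A01 (adjusted p = 0.0861) and A02 (adjusted p = 0.0645). Tubb3 lies on chromosome 8, came to -0.10 after scaling by chromosome, and missed the threshold without A01 (adjusted p = 0.0541) and without library 3 of A02 (adjusted p = 0.130). As a list, the neuronal genes held 16.7% higher and 11.1% lower, near the 12.6% and 10.7% of all genes. Summed neuron markers overlapped, at 345 to 394 CPM in MD and 329 to 543 CPM in R42A.

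Of 18 genes of epithelia and cadherins, 6 were higher and 1 lower, with a median of 0.46, and 11 did not pass. Esrp1, a splicing regulator that sets epithelial isoforms, ran from 44.3 to 61.8 CPM (median 50.5) in the 6 MD libraries and 5.17 to 9.43 CPM (median 6.76) in the 6 R42A libraries. All MD libraries stood far above the R42A libraries (log2 change 2.82 ± 0.12, edgeR adjusted p = 7.58e-05, 7.08-fold). Cldn7, another claudin, was higher at 13.6 and 18.4 against 2.18 and 2.98 CPM (log2 change 2.63 ± 0.22, edgeR adjusted p = 0.000551, 2.12 after scaling by chromosome). Epcam, a surface adhesion molecule, was higher at 113 and 123 against 53 and 64.7 CPM (log2 change 1.00 ± 0.11, edgeR adjusted p = 0.0011). Rab25, an epithelial trafficking GTPase, was at 4.06 and 3.42 against 0.951 and 0.991 CPM (log2 change 1.95 ± 0.23, edgeR adjusted p = 0.00127). The other higher members are better known from mesenchymal cells: Cdh2, which encodes N-cadherin, at 18.4 and 8.85 against 3.62 and 4.12 CPM (log2 change 1.81 ± 0.36, edgeR adjusted p = 0.0204), and Vim, the intermediate filament vimentin, at 338 and 259 against 225 and 216 CPM (log2 change 0.44 ± 0.12, edgeR adjusted p = 0.0417). Cdh2 missed the threshold without A01 (1.72, adjusted p = 0.225), A02 (1.91, adjusted p = 0.19) or library 2 of 47 (1.75, adjusted p = 0.0583). Vim missed it without 45 (0.24, adjusted p = 0.135), A01 (0.46, adjusted p = 0.207), A02 (0.41, adjusted p = 0.276) or library 2 of any clone. Cdh1, which encodes E-cadherin and lies on chromosome 8, was the lower member at 272 and 324 against 413 and 364 CPM (log2 change -0.38 ± 0.10, edgeR adjusted p = 0.0345), and its difference turned to 0.09 after scaling by chromosome. Without clone 45 it was -0.26, adjusted p = 0.123, without A01 -0.29, adjusted p = 0.199, without A02 -0.47, adjusted p = 0.0505 and without library 3 of clone 47 -0.36, adjusted p = 0.0509.

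**Figure D2:**
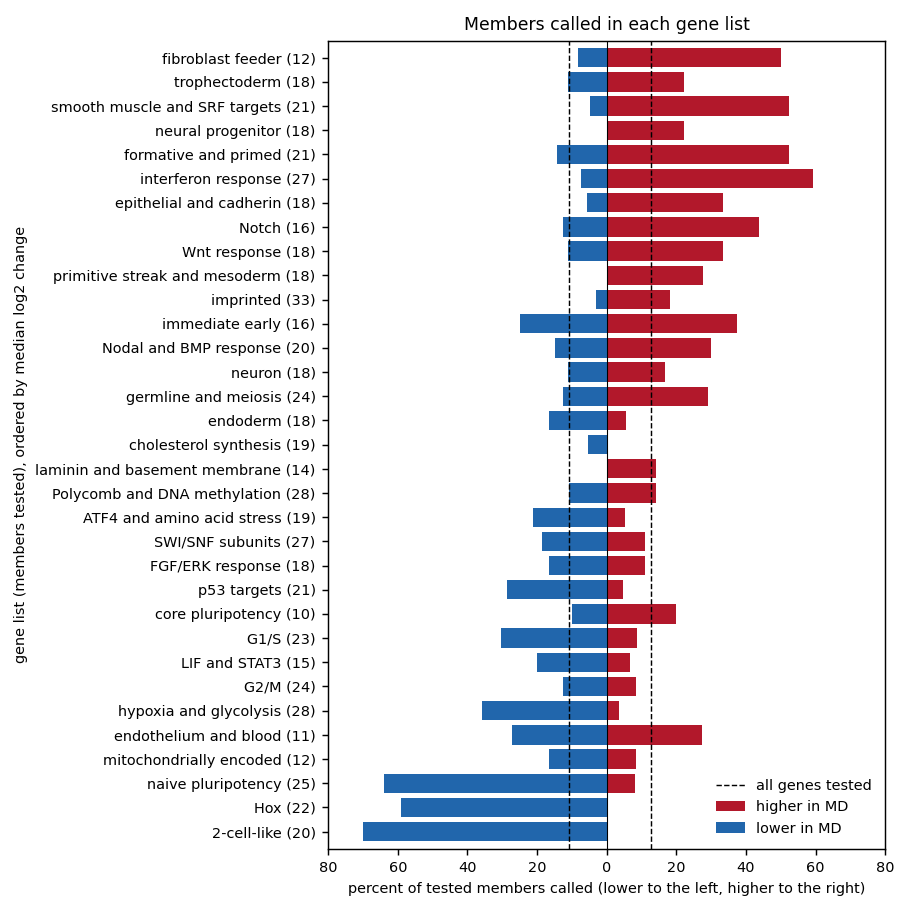
Bars give the percent of tested members of each gene list called higher (red, right) or lower (blue, left) in MD, with the number tested in brackets and dashed lines at the shares over all genes, 12.6% and 10.7%. Interferon response, formative and SRF target lists reach beyond 50% on the right, and 2-cell-like, naive and Hox lists beyond 50% on the left.

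Of 21 smooth muscle and SRF target genes, 11 (52.4%) were higher and 1 (4.76%) lower, beside 12.6% and 10.7% of all genes. The median was 1.14. SRF binds a DNA element called the CArG box and, with its actin-sensing partners, drives genes of contraction and adhesion. Myl9, a regulatory myosin light chain, ran from 17 to 28.8 CPM (median 23.2) in the 6 MD libraries and 2.77 to 5.92 CPM (median 3.68) in the 6 R42A libraries, without overlap (log2 change 2.48 ± 0.15, edgeR adjusted p = 0.000152). Ccn1, a matricellular growth factor, was higher at 35.6 and 37.9 against 4.15 and 6.33 CPM (log2 change 2.81 ± 0.20, edgeR adjusted p = 0.00054). Tpm1, a tropomyosin that coats actin filaments, rose to 172 and 188 CPM from 74.6 and 81.7 CPM (log2 change 1.21 ± 0.09, edgeR adjusted p = 0.000259). Cnn2, a calponin, was at 88.4 and 112 against 44.9 and 49.3 CPM (log2 change 1.09 ± 0.12, edgeR adjusted p = 0.00134). Tpm2, Zyx and Ankrd1 also rose, by 0.84, 1.14 and 3.50 on the log2 scale, and like the 4 genes before them kept their call under every alternative run. Tagln2 went the other way, at 118 and 155 against 219 and 242 CPM (log2 change -0.75 ± 0.13, edgeR adjusted p = 0.00737), and missed the threshold without A01 (-0.83, adjusted p = 0.0612) or A02 (-0.68, adjusted p = 0.0803). Members called higher numbered 7 without A01 and 11 without the second library of each clone.

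A CArG box, searched on both strands from 250 bases before to 50 after the start, was found in 5 of the 18 promoters of this list that the RefSeq table holds (Cnn2, Myl9, Vcl, Srf and Fhl2) and in 1.35% of 13220 promoters. It was in 2.15% of promoters of genes called higher and 1.42% of those called lower. Shown because both genes rose are the 180 bases before the start of Myl9 (chr2:156775284-156775463, + strand) and Cnn2 (chr10:79988420-79988599, + strand), both from RefSeq on GRCm38.p6, 5′ to 3′, with the box in capitals.
Myl9: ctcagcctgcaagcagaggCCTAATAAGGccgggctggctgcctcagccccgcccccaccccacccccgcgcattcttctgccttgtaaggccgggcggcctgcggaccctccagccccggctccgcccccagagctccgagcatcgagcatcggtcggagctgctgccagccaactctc
Cnn2: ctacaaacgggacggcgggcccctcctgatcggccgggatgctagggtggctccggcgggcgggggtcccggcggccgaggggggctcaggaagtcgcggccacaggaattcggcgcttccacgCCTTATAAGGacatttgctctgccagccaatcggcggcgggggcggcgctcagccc
The box begins 161 bases before the start in Myl9 and 56 in Cnn2. A match is a run of letters, and no binding was measured here.

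A list chosen to mark fibroblast feeder cells was also examined, although the cells grew on gelatin. Of 12 tested, 6 were higher (3 without A01) and 1 lower, with a median of 1.61, and 5 did not pass. Col1a2, a chain of type I collagen, had the largest change among the called genes ranked by size, with 4.56 to 37.2 CPM (median 13.4) in the 6 MD libraries and 0.257 to 0.879 CPM (median 0.299) in the 6 R42A libraries. In the separate clones it was 18.3 and 15.1 against 0.264 and 0.518 CPM (log2 change 5.43 ± 0.32, edgeR adjusted p = 0.000259, 43-fold). Col6a2, a chain of type VI collagen, was higher at 1.88 and 1.67 against 0.673 and 0.784 CPM (log2 change 1.28 ± 0.26, edgeR adjusted p = 0.00876), and missed the threshold without A01 (1.17, adjusted p = 0.0896) or A02 (1.40, adjusted p = 0.0506). Col1a1, on chromosome 11, was higher at 11.9 and 21 against 0.984 and 2.51 CPM (log2 change 3.24 ± 0.61, edgeR adjusted p = 0.0349; 2.73 after scaling by chromosome). The change was 3.60 without clone 45 and 2.77 without clone 47. Its call was lost without the second library of clone 45 (2.99, edgeR adjusted p = 0.108) or library 3 of 47 (3.54, adjusted p = 0.0539) or A02 (3.08, adjusted p = 0.0534). Thy1, a fibroblast surface marker, was lower at 3.39 and 3.95 against 5.29 and 8.74 CPM (log2 change -0.94 ± 0.26, edgeR adjusted p = 0.0351), with overlapping libraries, and had adjusted p = 0.253 without A02, 0.0928 without 45, a lost call without library 3 of 47 (-0.84, adjusted p = 0.0628) and 0.0602 after scaling by chromosome. The 6 tested fibroblast markers summed to 16.6 to 102 CPM in the MD libraries and 8.79 to 18.3 CPM in the R42A libraries, ranges that overlap, and the defining markers Dcn and Lum were too low to be tested. The part of fibroblast-like cells in these changes was not tested, and fewer cells of a type and less RNA per cell cannot be told apart in bulk libraries.

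Several of these genes were highest in the second library of a clone. Col1a1 measured 6.73, 20.8 and 6.29 CPM in libraries 1, 2 and 3 of clone 45 and 8.35, 52.0 and 6.12 CPM in those of clone 47. Col1a2 measured 13.9, 26.4 and 12.8 CPM in clone 45 and 5.98, 37.25 and 4.56 CPM in clone 47. Igf2 and Prss23, described below, were also highest in the second library of both MD clones. Acta2, smooth muscle actin, measured 6.16, 20.8 and 7.96 CPM in clone 45 and 9.81, 52.0 and 10.1 CPM in clone 47, against 0.686 to 2.55 CPM in R42A. Tagln, another SRF target, did not pass (log2 change 3.41 ± 0.82, edgeR adjusted p = 0.0789) but did with DESeq2 (adjusted p = 0.00145) and without the second libraries (adjusted p = 0.00833), and was at 93.7 CPM in library 2 of clone 47 against 17.4 and 18.7 CPM in its other libraries. In A02, too, library 2 was highest for Col1a1, Col1a2, Acta2 and Tagln. Without the second library of each clone, an alternative chosen after the values were seen, 4 in place of 6 fibroblast genes were higher, and 4206 genes were called in all. Acta2 itself (log2 change 3.71 ± 0.53, edgeR adjusted p = 0.0143) missed the threshold without A01 (3.27, adjusted p = 0.0648) or the second library of clone 45 (3.48, adjusted p = 0.0731).

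**Figure D3:**
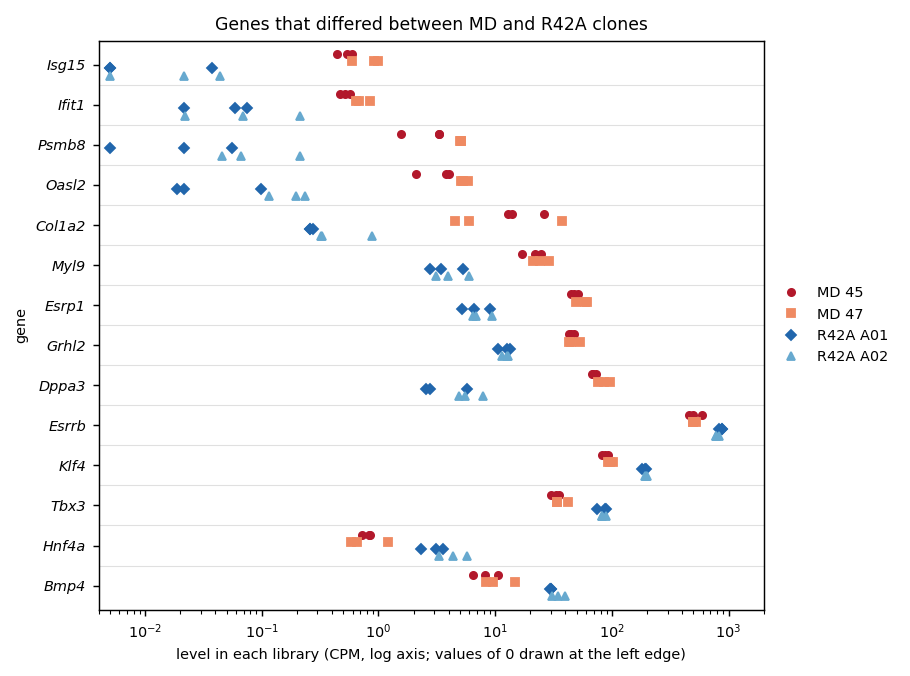
Points are the 12 libraries, by clone, for 14 genes on a log CPM axis. MD libraries (reds) lie above R42A libraries (blues) for the upper 9 genes and below them for Esrrb, Klf4, Tbx3, Hnf4a and Bmp4, with no overlap in any of the 14.

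Interferon response genes gave the list with the most members higher, 16 of 27, with 2 lower and a median of 0.76. That count was 15 or 16 whichever clone or library was left out. It was 14 with the spread shared with the first series and 17 with DESeq2. These genes encode antiviral effectors, antigen-processing subunits and sensors, and are induced by interferon. Isg15, a ubiquitin-like modifier, ran from 0.439 to 0.992 CPM (median 0.594) in the 6 MD libraries and 0 to 0.044 CPM (median 0.0107) in the 6 R42A libraries (log2 change 5.19 ± 0.51, edgeR adjusted p = 0.000685). That rests on 78 and 113 counts in clones 45 and 47 against 2 and 3 in A01 and A02. Psmb8, an immunoproteasome subunit, had 396 and 693 counts against 4 and 15, at 2.65 and 5.04 against 0.0264 and 0.111 CPM (log2 change 5.82 ± 0.63, edgeR adjusted p = 0.00232). Oasl2, an antiviral 2′-5′ oligoadenylate synthetase-like protein, was at 3.26 and 5.4 against 0.0462 and 0.185 CPM (log2 change 5.24 ± 0.61, edgeR adjusted p = 0.00305). The low ends of these ranges are levels at which single reads count, so the folds are imprecise.

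At higher levels, Ifitm1, a membrane protein that hinders viral entry, was at 258 and 302 against 134 and 109 CPM (log2 change 1.20 ± 0.12, edgeR adjusted p = 0.00108). Ifi35, an interferon-induced leucine-zipper protein, rose from 1.84 and 2.14 CPM to 9.64 and 11.6 CPM (log2 change 2.41 ± 0.20, edgeR adjusted p = 0.000365). Ddx58, which encodes the RNA sensor RIG-I, was higher at 58 and 64.1 against 36.3 and 30.1 CPM (log2 change 0.88 ± 0.11, edgeR adjusted p = 0.00169). Irf1, a transcription factor of this response, rose by 1.53 on the log2 scale to 42.3 and 55.4 CPM, and Tap1, a peptide transporter, by 1.3. The guanylate-binding protein genes Gbp2 (16.9 and 26.3 against 0.158 and 0.925 CPM) and Gbp3 (2.76 and 5.19 against 0.033 and 0.17 CPM) were raised 40.5-fold and 39.6-fold, but share reads with close copies. Gbp2 missed the threshold without clone 45 (5.63, adjusted p = 0.286) and without clone 47 (4.98, adjusted p = 0.327).

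Stat2 and Irf9, 2 factors that carry the interferon signal, were not called higher with these genes. Stat2 was at 49.5 and 44.1 against 42.8 and 47.1 CPM (log2 change 0.06 ± 0.10, edgeR adjusted p = 0.73), and Irf9 was lower at 15.8 and 14.8 against 19.6 and 20.3 CPM (log2 change -0.38 ± 0.11, edgeR adjusted p = 0.0443). Irf9 missed the threshold when any of the 4 clones was left out, with adjusted p from 0.0562 to 0.206, and without any one of 5 libraries. Ifit2, a translation inhibitor, was also lower at 4.22 and 3 against 7.08 and 6.32 CPM (log2 change -0.89 ± 0.22, edgeR adjusted p = 0.0203), and missed it without A01 (-0.81, adjusted p = 0.136) or A02 (-0.97, adjusted p = 0.0791). Its neighbour in function Ifit1 was higher (0.515 and 0.72 against 0.0528 and 0.104 CPM; log2 change 2.98 ± 0.43, edgeR adjusted p = 0.00238), while Ifit3 was at 0.1 and 0.0437 against 0.132 and 0.0592 CPM (log2 change -0.41 ± 0.59, edgeR adjusted p = 0.672) and Usp18, a sensitive interferon target, at 0.0201 and 0.0946 against 0.0198 and 0.0962 CPM (log2 change -0.01 ± 0.91, edgeR adjusted p = 0.997). Members of one family thus lay on different sides.

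The core of the interferon-stimulated response element, GAAA, any 2 bases and GAAA again on either strand, was present in 13 of the 25 promoters of this list held by RefSeq and in 2.95% of 13220 promoters. It was in 4% of promoters of called higher genes and 2.51% of those of called lower genes. It was present in the promoters of Ifit1 and of Ifit3, which did not move alike. Among genes called higher it was also present for Bst2, Gbp2, Gbp7, Ddx58, Ifih1 and B2m. It was not found in the promoters of Psmb8 and Oasl2, which were called higher too. Shown as examples among the raised genes that carry it are the 180 bases before the start of Isg15 (chr4:156200819-156200998, - strand), Ifit1 (chr19:34640709-34640888, + strand) and Gbp3 (chr3:142559864-142560043, + strand), from RefSeq on GRCm38.p6, 5′ to 3′, with matches in capitals.
Isg15: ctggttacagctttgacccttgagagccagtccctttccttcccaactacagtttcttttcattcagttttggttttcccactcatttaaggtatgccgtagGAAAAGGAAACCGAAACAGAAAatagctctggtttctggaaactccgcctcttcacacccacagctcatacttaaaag
Ifit1: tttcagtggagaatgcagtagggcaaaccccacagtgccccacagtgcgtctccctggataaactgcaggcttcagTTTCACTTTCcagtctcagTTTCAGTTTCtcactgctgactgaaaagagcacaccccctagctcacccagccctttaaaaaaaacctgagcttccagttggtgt
Gbp3: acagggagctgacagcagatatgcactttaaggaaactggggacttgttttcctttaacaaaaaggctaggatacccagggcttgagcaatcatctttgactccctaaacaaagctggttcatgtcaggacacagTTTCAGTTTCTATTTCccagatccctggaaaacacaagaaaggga
Isg15 holds 3 overlapping matches, Ifit1 holds 2 separate ones and Gbp3 holds 2 that overlap, within 104 bases of the start in each case.

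Genes of the 2-cell-like state, in which a few ESC switch on transcripts of the early embryo, were lower in 14 and higher in 0 of 20 cases, with a median of -1.61. Zscan4a, of a family that acts at telomeres, was at 10.8 and 16.5 against 55.9 and 44.6 CPM (log2 change -1.88 ± 0.23, edgeR adjusted p = 0.00466) and Zscan4e at 5.86 and 8.64 against 29.8 and 21.1 CPM (log2 change -1.81 ± 0.24, edgeR adjusted p = 0.00427). Tdpoz3 was at 0.268 and 0.386 against 1.23 and 1.21 CPM (log2 change -1.91 ± 0.30, edgeR adjusted p = 0.00343) and Zfp352, an embryonic zinc-finger gene, at 0.75 and 1.14 against 2.54 and 3.21 CPM (log2 change -1.60 ± 0.28, edgeR adjusted p = 0.00527), with overlapping libraries. The Zscan4 and Tdpoz families consist of near-identical copies that share reads, so their members are not separate evidence. The count fell to 5 without A01, to 5 without A02 and to 0 when the spread was shared with the first series. Hox genes, which pattern the body axis, were lower in 13 and higher in 0 of 22 cases, with a median of -1.48, all at low levels. Hoxd13 was at 0.435 and 0.502 against 1.5 and 1.8 CPM (log2 change -1.82 ± 0.27, edgeR adjusted p = 0.00278). Hox members called lower numbered 7 without clone 45, 6 without A01, 1 without A02 and 6 with DESeq2.

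Germline genes split, with 7 of 24 higher (29.2%) and 3 lower (12.5%), beside 12.6% and 10.7% of all genes. Tex19.1, a gene of germ cells and placenta that restrains retrotransposons, was higher at 182 and 223 against 59.4 and 58.7 CPM (log2 change 1.77 ± 0.11, edgeR adjusted p = 0.000161; 1.26 after scaling by chromosome). Tfap2c, a factor of germ cells and trophoblast, was at 50.5 and 60.1 against 27.4 and 33.5 CPM (log2 change 0.86 ± 0.13, edgeR adjusted p = 0.00342). Mov10l1, a helicase of the piRNA pathway, fell to 13.2 and 16.7 CPM from 30.5 and 28.8 CPM (log2 change -0.99 ± 0.13, edgeR adjusted p = 0.0019). Tex11, a meiosis gene, was at 12.7 and 13.9 against 22.4 and 19.6 CPM (log2 change -0.66 ± 0.13, edgeR adjusted p = 0.00736), with adjusted p = 0.0731 without A01. Stra8, the gatekeeper of meiosis, was the third lower member at 10.3 and 13.9 against 17.8 and 19.5 CPM (log2 change -0.62 ± 0.16, edgeR adjusted p = 0.0264), a call lost without A01 (-0.68, adjusted p = 0.0961), A02 (-0.55, adjusted p = 0.156) and in 6 other alternatives. The higher members numbered 3 without clone 47, A01 or A02, and the lower ones 1 without A01.

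Imprinted genes, expressed from 1 parental copy, were higher in 6 (18.2%) and lower in 1 (3.03%) of 33 cases, with a median of 0.35. The shares over all genes were 12.6% and 10.7%. Peg3 and its neighbour Usp29, which share a promoter region, rose together, Peg3 at 195 and 178 against 96.4 and 75.6 CPM (log2 change 1.12 ± 0.12, edgeR adjusted p = 0.00134) and Usp29 at 10.8 and 9.36 against 4.18 and 3.31 CPM (log2 change 1.43 ± 0.19, edgeR adjusted p = 0.00185). Plagl1, a zinc-finger growth regulator, was at 22 and 14.8 against 7.05 and 4.93 CPM (log2 change 1.62 ± 0.25, edgeR adjusted p = 0.00529). Zrsr1 was at 43.7 and 46.8 against 31.8 and 34.6 CPM (log2 change 0.45 ± 0.10, edgeR adjusted p = 0.0124), but lies on chromosome 11, where scaling turned it to -0.07. Slc38a4, an amino acid transporter, was lower at 138 and 175 against 209 and 229 CPM (log2 change -0.48 ± 0.12, edgeR adjusted p = 0.0253), with adjusted p = 0.100 without A01 and 0.162 without A02, and calls lost without 45 (-0.32, adjusted p = 0.0559) or library 1 of 47 (-0.45, adjusted p = 0.072). Igf2, a fetal growth factor, was above R42A in every library at 27.7 and 18.8 against 1.13 and 3.64 CPM, with a log2 change of 3.29 and an edgeR adjusted p of 0.05001, just over the threshold. It passed under 18 of 26 alternatives (0.000393 with DESeq2), though not without clone 45 or 47. Its neighbour H19 was likewise separate but uneven between clones, at 21.2 and 83.7 against 4.55 and 2.06 CPM (log2 change 3.98 ± 1.01, edgeR adjusted p = 0.0932), and passed with DESeq2 (adjusted p = 0.000687). The higher members numbered 10 without clone 47 or without its first library, and 12 with DESeq2.

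Genes of hypoxia and glycolysis were lower in 10 (35.7%) and higher in 1 (3.57%) of 28 cases, with a median of -0.18. Pfkp, the platelet form of phosphofructokinase, was at 275 and 252 against 439.5 and 399 CPM (log2 change -0.67 ± 0.08, edgeR adjusted p = 0.00154). Pdk1, a kinase that holds pyruvate out of mitochondria, fell to 155 and 159.7 CPM from 239 and 223 CPM (log2 change -0.55 ± 0.08, edgeR adjusted p = 0.00215). Ankrd37 and Ndrg1, 2 targets of hypoxia-inducible factor, fell by 1.18 and 0.91 on the log2 scale. Aldoc, an aldolase, was the higher member at 32.3 and 25.9 against 13.9 and 17.5 CPM (log2 change 0.89 ± 0.16, edgeR adjusted p = 0.00589), lies on chromosome 11, came to 0.38 (adjusted p = 0.145) after scaling by chromosome, and missed the threshold without the second A01 library (1.07, adjusted p = 0.0531). Lower members numbered 5 without A02, and 5 without the second library of A01. Of 19 genes of ATF4 and amino acid stress, 4 (21.1%) were lower and 1 (5.26%) higher, beside 10.7% and 12.6% of all genes. Atf5, a stress factor, was at 28.4 and 26.9 against 54 and 45.2 CPM (log2 change -0.84 ± 0.11, edgeR adjusted p = 0.00176) and Shmt2, of mitochondrial one-carbon metabolism, at 224 and 229 against 311 and 326 CPM (log2 change -0.49 ± 0.07, edgeR adjusted p = 0.0027). Slc7a11, the cystine importer, was higher at 3.52 and 2.22 against 0.693 and 0.866 CPM (log2 change 1.88 ± 0.30, edgeR adjusted p = 0.00339). The 4 lower members became 2 without clone 45, A01, A02 or library 2 of 47, or library 3 of A01 or A02. Of 19 cholesterol synthesis genes, 0 were higher and 1 lower, but 6 were higher without A02, 7 without its second library and 3 without clone 47 or its library 3. The lower one was Msmo1, at 91.7 and 81.1 against 116 and 149 CPM on chromosome 8, with -0.16 (adjusted p = 0.578) after scaling by chromosome and adjusted p = 0.0533 without A02.

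Of 23 G1/S genes, 7 were lower and 2 higher, a count that became 3 and 1 when each chromosome was scaled separately. On that scale 9.02% of all genes were higher and 8.02% lower. E2f2, an activator of S-phase genes, was lower at 14.8 and 13.4 against 32.7 and 32 CPM (log2 change -1.19 ± 0.11, edgeR adjusted p = 0.000551). Ccnd3, a D-type cyclin, was at 236 and 221 against 315 and 358 CPM (log2 change -0.56 ± 0.09, edgeR adjusted p = 0.00331) and its partner Cdk4 at 373 and 346 against 506 and 494 CPM (log2 change -0.48 ± 0.08, edgeR adjusted p = 0.00342). Ccnd1 was higher at 164 and 156 against 122 and 97.6 CPM (log2 change 0.54 ± 0.11, edgeR adjusted p = 0.012). Cdc6, of replication licensing, was at 119 and 120.5 against 82.8 and 81.9 CPM but lies on chromosome 11 (0.03, adjusted p = 0.799 after scaling by chromosome), and Mcm5, of the replicative helicase, was at 445 and 467 against 703 and 687 CPM on chromosome 8 (-0.14, adjusted p = 0.18). The lower members numbered 4 without A02. Of 24 G2/M genes 3 (12.5%) were lower and 2 (8.33%) higher, near the 10.7% and 12.6% of all genes. Bub1b, of the spindle checkpoint, was lower at 250.4 and 244 against 339 and 318 CPM (log2 change -0.41 ± 0.08, edgeR adjusted p = 0.00601). Top2a, topoisomerase II alpha, was higher at 1084 and 1136 against 816 and 743 CPM (log2 change 0.51 ± 0.08, edgeR adjusted p = 0.0031) on the same chromosome as Smarce1, and was at -0.0038 after scaling by chromosome. The lower G2/M members numbered 1 without A01 and 6 without the first library of clone 47. Among 21 p53 targets, 6 were lower and 1 higher. Gdf15, a stress cytokine, was at 3.19 and 4.35 against 9.54 and 9.77 CPM (log2 change -1.36 ± 0.20, edgeR adjusted p = 0.00247), Eda2r, a death receptor, at 40.5 and 33.8 against 58.1 and 62 CPM (log2 change -0.69 ± 0.11, edgeR adjusted p = 0.0034) and Gtse1, a regulator of p53 in G2, at 164 and 163 against 211 and 232 CPM (log2 change -0.44 ± 0.08, edgeR adjusted p = 0.00589). Ccng1, cyclin G1, was higher at 278 and 235 against 188 and 189.6 CPM (log2 change 0.44 ± 0.09, edgeR adjusted p = 0.0111) but was at -0.07 after scaling by chromosome, and had adjusted p = 0.0737 without A01 and 0.0726 without A02. Members called higher numbered 3 without the second library of A02, 2 without clone 45 and 0 without A01 or A02.

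Signalling lists held changes in both directions. Bmp4, a ligand that supports naive ESC, ran from 6.43 to 14.8 CPM (median 8.9) in the 6 MD libraries and 29.8 to 39.4 CPM (median 30.6) in the 6 R42A libraries, without overlap (log2 change -1.76 ± 0.15, edgeR adjusted p = 0.00047). Skil, a feedback inhibitor of SMADs, was higher at 158 and 169 against 108 and 99.4 CPM (log2 change 0.66 ± 0.08, edgeR adjusted p = 0.00154). In all, 6 of 20 Nodal and BMP genes were higher and 3 lower, 1 lower without A02. Of 16 Notch genes 7 were higher and 2 lower. The receptor Notch4 fell to 13.5 and 16.4 CPM from 34.6 and 37.4 CPM (log2 change -1.27 ± 0.12, edgeR adjusted p = 0.000671) and the target Hes1 to 18.5 and 16.3 CPM from 29.1 and 28.7 CPM (log2 change -0.73 ± 0.11, edgeR adjusted p = 0.00278), while the ligand Jag2 was higher at 51.4 and 59.3 against 35.2 and 38 CPM (log2 change 0.60 ± 0.10, edgeR adjusted p = 0.00497) and the inhibitory ligand Dll3 at 5.62 and 6.42 against 2.96 and 3.06 CPM (log2 change 1.00 ± 0.19, edgeR adjusted p = 0.00706). Dll3 missed the threshold without A01 (0.97, adjusted p = 0.0651) or A02 (1.02, adjusted p = 0.0507). Higher Notch members numbered 4 without clone 45, 2 without A01 and 1 without A02.

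Of 18 Wnt response genes 6 were higher and 2 lower, and 0 and 1 lower without A01 and A02. Tcf7, a nuclear effector of Wnt, was at 78.8 and 75.6 against 41.8 and 42.8 CPM (log2 change 0.87 ± 0.08, edgeR adjusted p = 0.000674; 0.36 after scaling by chromosome). Sfrp1, a secreted Wnt antagonist, was lower at 32.1 and 21.2 against 85 and 82.3 CPM (log2 change -1.65 ± 0.20, edgeR adjusted p = 0.00382), with adjusted p = 0.0675 without A01 and 0.0651 without A02. The FGF/ERK list gave 2 higher (11.1%) and 3 lower (16.7%) of 18, beside 12.6% and 10.7% of all genes. Fgfr2, an FGF receptor also used in trophoblast, was raised at 11 and 15.6 against 3.43 and 4.51 CPM (log2 change 1.74 ± 0.22, edgeR adjusted p = 0.00187). Spry4, a feedback inhibitor, was lower at 84 and 106 against 224 and 165 CPM (log2 change -1.03 ± 0.18, edgeR adjusted p = 0.0163). Immediate early genes gave 6 higher and 4 lower of 16, and 0 higher without A01. Ier2, on chromosome 8, was lower at 87.2 and 99.5 against 167 and 150.2 CPM (log2 change -0.77 ± 0.10, edgeR adjusted p = 0.00145; -0.29 after scaling by chromosome), and Ier5 was higher at 5.71 and 5.52 against 2.28 and 2.9 CPM (log2 change 1.12 ± 0.21, edgeR adjusted p = 0.00631), with adjusted p = 0.0678 without A01.

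Genes of other lineages were mostly at low levels. Hnf4a, a factor of visceral endoderm, was lower, from 0.576 to 1.2 CPM (median 0.771) in the 6 MD libraries and 2.3 to 5.79 CPM (median 3.46) in the 6 R42A libraries (log2 change -2.24 ± 0.27, edgeR adjusted p = 0.00134). Endoderm genes as a list gave 3 lower (16.7%) and 1 higher (5.56%) of 18, beside 10.7% and 12.6% of all genes. Gata3, a trophectoderm factor, was higher at 1.43 and 1.49 against 0.125 and 0.244 CPM (log2 change 2.99 ± 0.36, edgeR adjusted p = 0.00134), and Tead4, which starts trophectoderm fate, was lower at 14.5 and 13.4 against 24.8 and 28 CPM (log2 change -0.92 ± 0.12, edgeR adjusted p = 0.00161). Of 18 trophectoderm genes 4 were higher and 2 lower, with 7 higher without clone 45 and 8 with DESeq2. Summed trophectoderm markers were 5.26 to 11.4 CPM in MD and 2.90 to 4.14 CPM in R42A, and Elf5 was too low to be tested. Kdr, the VEGF receptor of early mesoderm, was at 3 and 2.94 against 0.581 and 0.777 CPM (log2 change 2.13 ± 0.26, edgeR adjusted p = 0.00131), and Wnt3, which starts the primitive streak, at 1.9 and 1.03 against 0.198 and 0.296 CPM (log2 change 2.57 ± 0.39, edgeR adjusted p = 0.00311). Primitive streak genes gave 5 higher and 0 lower of 18, 2 without A01 and 3 without A02. Lamb1, a laminin chain, was higher at 149 and 177 against 97.4 and 99 CPM (log2 change 0.73 ± 0.10, edgeR adjusted p = 0.00179). Of 28 Polycomb and DNA methylation genes, 4 (14.3%) were higher and 3 (10.7%) lower, near the 12.6% and 10.7% of all genes. Suz12, a core Polycomb subunit on chromosome 11, was higher at 431 and 464 against 229 and 209.6 CPM (log2 change 1.03 ± 0.08, edgeR adjusted p = 0.000358) and stayed higher after scaling by chromosome (0.52, adjusted p = 0.00572). Higher members numbered 2 after that scaling, and 2 without A01, A02, or any one of libraries 1 and 3 of A02 and library 2 of A01. Lower members numbered 0 without A02, 1 without 45 and 5 without the first library of 47. Laminin and basement membrane genes gave 2 higher and 0 lower of 14 (1 without A01, 4 without A02 or its second library), endothelium and blood genes 3 and 3 of 11, and mitochondrially encoded genes 1 and 2 of 12 (lower 4 without 45, 0 without A01 or A02).

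The largest changes were ranked among called genes with at least 5 CPM in the higher genotype, all libraries apart and no predicted-gene name. Genes that were not called, such as Klhl4 and H19, do not enter this ranking however large their change. Enpp2, which makes the lipid signal lysophosphatidic acid, was raised at 25.6 and 12.8 against 0.508 and 0.829 CPM (log2 change 4.85 ± 0.49, edgeR adjusted p = 0.00429). It missed the threshold without A01 (4.53, adjusted p = 0.0745) or A02 (5.24, adjusted p = 0.0555). Usp26, an X-linked deubiquitinase of testis, was at 99.2 and 101 against 2.54 and 7.77 CPM (log2 change 4.28 ± 0.68, edgeR adjusted p = 0.0368), and missed it without clone 45 (4.29, adjusted p = 0.302), 47 (4.27, adjusted p = 0.298) or the second library of 47 (4.27, adjusted p = 0.0509). Gbp2b, a close copy of Gbp2, ran from 10.5 to 24.8 CPM (median 14.5) in the 6 MD libraries and 0.138 to 1.14 CPM (median 0.24) in the 6 R42A libraries (log2 change 5.35 ± 0.76, edgeR adjusted p = 0.0188), and missed it without 45 (5.66, adjusted p = 0.151) or 47 (4.95, adjusted p = 0.2). Fndc3c1, an X-linked gene, was at 29.4 and 10.8 against 1.08 and 1.84 CPM (log2 change 3.79 ± 0.69, edgeR adjusted p = 0.0376), and missed it without A01 (3.44, adjusted p = 0.29), A02 (4.23, adjusted p = 0.223) or library 2 of 47 (3.71, adjusted p = 0.0748). Prss23, a serine protease, was at 7.78 and 8.21 against 0.244 and 1.05 CPM (log2 change 3.64 ± 0.73, edgeR adjusted p = 0.0364), and missed it without 45 (3.68, adjusted p = 0.289), 47 (3.60, adjusted p = 0.352), library 2 of 47 (3.0, adjusted p = 0.173) or library 1 of A02 (3.46, adjusted p = 0.0602). Sema6a, a semaphorin, was at 16.8 and 7.35 against 0.865 and 1.38 CPM (log2 change 3.43 ± 0.51, edgeR adjusted p = 0.0126), and missed it without A01 (3.12, adjusted p = 0.138) or A02 (3.81, adjusted p = 0.102). Of the 12 raised genes ranked, Col1a2, Dppa3 and Rhox2a kept their call whichever clone was left out. Rhox2a, of an X-linked homeobox cluster with close copies, was at 5.33 and 9.46 against 0.442 and 0.585 CPM (log2 change 3.85 ± 0.34, edgeR adjusted p = 0.000678). 

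Among lowered genes, Mras, a RAS-family GTPase, had the lowest p of all tested genes, from 12.4 to 17.1 CPM (median 14.8) in the 6 MD libraries and 67 to 108 CPM (median 88.8) in the 6 R42A libraries (log2 change -2.58 ± 0.10, edgeR adjusted p = 7.35e-05). Coro2b, an actin-binding coronin, was at 3.21 and 3.56 against 21.1 and 23.2 CPM (log2 change -2.71 ± 0.14, edgeR adjusted p = 9.19e-05). Nkx6-3, a homeobox gene on chromosome 8, fell to 1.86 and 1.28 CPM from 14 and 17.7 CPM (log2 change -3.34 ± 0.23, edgeR adjusted p = 0.000281) and Rapgef3, a cAMP-activated exchange factor, to 2.09 and 3.5 CPM from 18.2 and 22.8 CPM (log2 change -2.88 ± 0.27, edgeR adjusted p = 0.0012). Pdyn, the prodynorphin gene, was at 0.923 and 1.18 against 12 and 7.57 CPM (log2 change -3.22 ± 0.28, edgeR adjusted p = 0.00058) and Igsf21, a synaptic adhesion gene, at 1.44 and 1.77 against 9.05 and 10.1 CPM (log2 change -2.58 ± 0.20, edgeR adjusted p = 0.000338). Col13a1, a transmembrane collagen, Zbtb7c, a zinc-finger gene, Spata31d1b, a testis gene with close copies, and Lonrf2 fell by -2.52, -2.50, -2.49 and -2.32 on the log2 scale and kept their call under every alternative run. Emp1, an epithelial membrane protein, was at 6.81 and 12.7 against 38.5 and 63.9 CPM (log2 change -2.40 ± 0.46, edgeR adjusted p = 0.0415), and missed the threshold when any of the 4 clones was left out, without 45 (-2.01, adjusted p = 0.132), 47 (-2.91, adjusted p = 0.148), A01 (-2.72, adjusted p = 0.128) or A02 (-1.98, adjusted p = 0.125), and without library 2 of 45 or library 3 of 47. Tex13b, an X-linked testis gene, was lower at 0.381 and 0.706 against 3.98 and 12.6 CPM (log2 change -3.93 ± 0.76, edgeR adjusted p = 0.035) with R42A clones that differed from each other (log2 difference 1.65 ± 0.15, edgeR adjusted p = 0.000106), and missed the threshold without 45 (-3.55, adjusted p = 0.385) or 47 (-4.44, adjusted p = 0.376).

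Chromosomes 8 and 11 differed as wholes. On chromosome 11, 85.2% of genes were higher in MD, with 832 called higher and 27 lower of 1577 and a median of 0.51. On chromosome 8, 20.7% were higher, with 49 called higher and 513 lower of 1069 and a median of -0.47. Clone by clone, the median deviation on chromosome 11 was 0.24 and 0.27 in MD and -0.26 and -0.24 in R42A. On chromosome 8 it was -0.23 and -0.22 in MD and 0.29 and 0.17 in R42A, so both clones of a genotype lay on one side. In windows of 20 Mb the medians ran from 0.47 to 0.57 in the 7 windows of chromosome 11 and from -0.54 to -0.44 in the 7 of chromosome 8, an even shift from end to end. In the first run of clones the medians were 0.45 and -0.37. These 2 chromosomes held 12.6% of the tested genes and 29.0% of the called ones. On all others 1760 genes were higher and 1717 lower, 18.9% of 18374. Chromosome 6 was raised in clone A02 alone (0.13), as were chromosomes 14 (0.09) and 15 (0.10). Copy number was not measured, and chromosome dose and the MD tag cannot be told apart for genes on chromosomes 8 and 11. Genes named without a chromosome can also lie on these 2, and then carry the same limit.

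**Figure D4:**
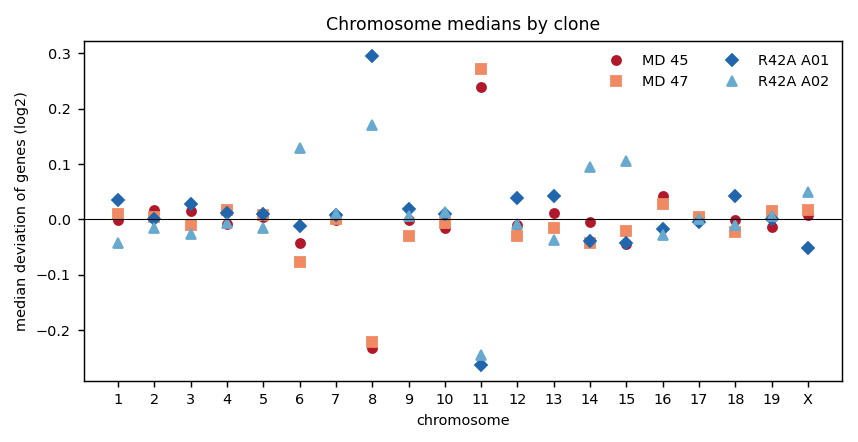
Points give, for each clone, the median deviation of the genes of a chromosome from their mean over the 4 clones, in log2. Chromosome 11 lies above that mean in both MD clones (0.24 and 0.27) and below it in both R42A clones. Chromosome 8 lies above it in both R42A clones (0.29 and 0.17) and below it in both MD clones. Chromosomes 6, 14 and 15 lie above it in A02. The deviations are relative, so a rise in one genotype and a fall in the other cannot be told apart.

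Clones of one genotype also differed. Between MD clones 47 and 45, edgeR called 1359 of 18890 genes (7.19%) on single libraries as replicates, 446 higher in 47 (2.36%) and 913 lower (4.83%). Between R42A clones A02 and A01 it called 571 (3.02%), 357 higher in A02 (1.89%) and 214 lower (1.13%). These p-values measure the spread between libraries of a clone, which may be technical. Without replicate 1 the counts were 161 and 12, without replicate 2 1545 and 205, and without replicate 3 587 and 93. With a block for replicate number, a pairing not taken as given, they were 2550 and 2064. Of 4681 genes called between genotypes and tested here, 300 (6.41%) also differed between the MD clones and 141 (3.01%) between the R42A clones, shares close to those over all genes. The test between genotypes takes its spread from the same pairs of clones, so genes that differ between clones are less readily called. These shares therefore do not show how free the called genes are of clone differences.

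Part of the neural and formative transcripts were higher in clone 45 than in 47. Other members, among them Grhl2, Cldn6, Pou3f1 and Sox21, were not lower in 47. Of 18 neural progenitor genes, 7 were lower in 47 than in 45 and 0 higher (2, 7 and 5 without replicate 1, 2 and 3), and of 21 formative genes 6 were lower and 1 higher (0, 6 and 2 lower). Pou3f2, a neural POU factor, was at 1.21 and 0.08 CPM in 45 and 47 (log2 difference -3.86 ± 0.39, edgeR adjusted p = 3.51e-05), with both R42A clones near the level of 47 at 0.0198 and 0.104 CPM. Six3, a forebrain factor, was at 0.93 and 0.08 CPM (log2 difference -3.51 ± 0.47, edgeR adjusted p = 0.000327) and Nes, the neural filament nestin, at 81 and 41.4 CPM (log2 difference -0.95 ± 0.18, edgeR adjusted p = 0.00557), against 14.1 and 20.1 CPM in R42A. Fgf5 was at 4.44 and 0.989 CPM (log2 difference -2.21 ± 0.37, edgeR adjusted p = 0.00212) and Cdh2, N-cadherin, at 18.4 and 8.85 CPM (log2 difference -1.03 ± 0.17, edgeR adjusted p = 0.00188). Of 25 naive genes, 6 were instead higher in 47 and 0 lower (0, 9 and 1 higher without replicate 1, 2 and 3). Spp1, the secreted phosphoprotein osteopontin, was one, at 101 and 136 CPM (log2 difference 0.45 ± 0.08, edgeR adjusted p = 0.00212).

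By size, the most uneven genes were those at a sizeable level in 45 alone. Klhl4, an X-linked gene, was at 9.86 and 0.32 against 0.033 and 0.037 CPM (log2 difference -4.93 ± 0.22, edgeR adjusted p = 3.4e-08). Fat3, a giant cadherin, was at 15.9 and 0.815 against 0.535 and 0.681 CPM (log2 difference -4.29 ± 0.20, edgeR adjusted p = 3.4e-08), and Heph, an iron oxidase, at 5.71 and 0.495 against 0.033 and 0.178 CPM (log2 difference -3.50 ± 0.27, edgeR adjusted p = 3.13e-06). Plce1, a phospholipase, was low in 47 alone, at 18.4 and 1.91 against 9.96 and 9.92 CPM (log2 difference -3.26 ± 0.17, edgeR adjusted p = 9.59e-08). In the other direction H19 was higher in 47, at 21.2 and 83.7 CPM (log2 difference 2.04 ± 0.27, edgeR adjusted p = 0.000592), and Car4, a carbonic anhydrase, at 3.89 and 10.9 CPM (log2 difference 1.48 ± 0.15, edgeR adjusted p = 4.21e-05). Anxa1, an annexin, was at 4.55 and 15.5 CPM, Rhox6, a homeobox gene, at 2.29 and 5.72 CPM and Nexmif, an X-linked neural gene, at 29.4 and 68 CPM in 45 and 47. Apol8, an apolipoprotein L gene, fell from 45 to 47, at 8.86 and 0.975 CPM. Of 33 imprinted genes, 6 were higher and 5 lower in 47 than in 45 (2, 8 and 3 higher and 2, 5 and 5 lower without replicate 1, 2 and 3). Between R42A clones 1 was higher and 7 lower in A02 (2, 7 and 3 lower without replicate 1, 2 and 3). Rian and Meg3, noncoding RNAs of one imprinted cluster, were both lower in A02, Rian at 554 and 321 CPM (log2 difference -0.79 ± 0.08, edgeR adjusted p = 0.00017) and Meg3 at 393 and 239.7 CPM (log2 difference -0.72 ± 0.08, edgeR adjusted p = 0.000422). Grb10, a growth inhibitor, was higher in 47 (50.1 and 81.7 CPM; log2 difference 0.72 ± 0.08, edgeR adjusted p = 0.00011) and in A02 (42.4 and 70.7 CPM; log2 difference 0.73 ± 0.09, edgeR adjusted p = 0.0007). Calml4, S100a6 and Msln were higher in A02, at 1.7 and 5.66 CPM, 6.81 and 25.4 CPM and 1.45 and 5.64 CPM in A01 and A02, as was Htra1, a secreted protease, at 3.22 and 9.97 CPM. Zfp951, Zfp629, Fam196b, Tgm3, a transglutaminase, and Sox1, a neural factor, were lower in A02, at 8.28 and 3.02 CPM, 7.28 and 3.69 CPM, 5.68 and 2.92 CPM, 13.3 and 6.91 CPM and 18.1 and 10.3 CPM.

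**Figure D5:**
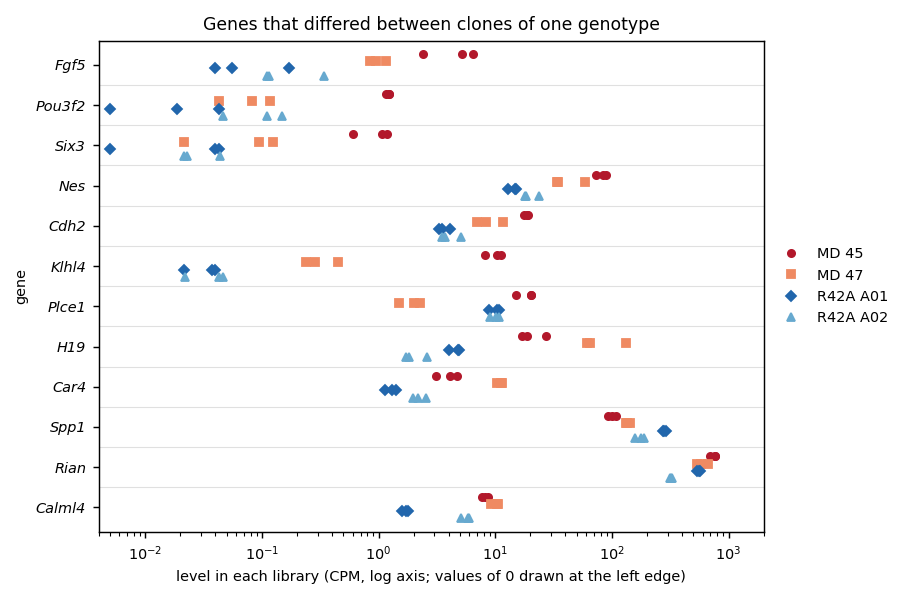
Points are libraries by clone on a log CPM axis for 12 genes that differed between clones of one genotype. Clone 45 stands apart for Fgf5, Pou3f2, Six3 and Klhl4, clone 47 for Plce1 and H19, and A01 and A02 are separate for Spp1, Rian and Calml4.

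Set beside the first run of clones, edgeR called no difference in MD effect between runs, with 0 of 22679 genes (0%), 685 at an unadjusted p under 0.05 and 7 called by DESeq2. Col1a2 was one of the 7, at 2.41 in the first run against 5.43 here (edgeR adjusted p of the difference 0.937). The others were Xlr3a, Xlr3b and Xlr3c, which are near-identical X-linked copies, and Gm14820, Gm45234 and Gm42417, named only because DESeq2 called them. Several interferon genes had smaller log2 changes there: Isg15 3.0 against 5.19, Psmb8 3.36 against 5.82, and Oasl2 3.49 against 5.24. Tbx3 (-1.46 against -1.27), Klf4 (-1.02 against -1.06) and Myl9 (2.43 against 2.48) were close in both. The first run has other clones and depths, and with 2 clones a side in each run a missed threshold does not show that the effects were equal.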

How the data were processed

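RNA was measured in 12 ESC libraries, 3 from each of 4 clones. The authors deposited 1 table per library of expected counts per gene from RSEM 1.3.0, after Trim Galore 0.60 and STAR 2.7.1a on mm10, per the submitters' processing notes. The gene annotation and the use of strand are not given in the sources used here, so reads of overlapping, antisense or near-identical genes may be split or shared. RNA was extracted with TRIzol and libraries were made with KAPA Hyper Prep, per the labels' protocols. Each table lists 55665 entries, of which 92 are ERCC controls with a total of 0. Values that were not whole (1.5 to 1.66% per library, tolerance 1e-06) were rounded, and 1562 Y-linked genes were left out.

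Counts were summed per clone, filtered with filterByExpr (minimum count 10), scaled by TMM and tested with edgeR 4.0.16 (quasi-likelihood, limma 3.58.1, R 4.3.3) with Benjamini-Hochberg adjustment and a threshold of 0.05. The SE is the absolute log2 change over the square root of F. Clones of a genotype were compared on single libraries. DESeq2 1.42.0, voom, other scalings, no filter, single libraries and the spread of both runs pooled were tried. So were TMM scaling within each chromosome and omission of each clone and library. The scripts were checked on simulated data, where the share of false calls among all calls was above the nominal threshold. At this number of clones, more of the called genes may therefore be false than the threshold implies.

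Members and the 33 gene lists were chosen with earlier results of these data known. The rule for named genes took Smarce1 and 3 anchor genes, up to 4 called members of each list with the lowest p and at least 1 CPM and those against its direction, the 12 largest called changes each way with at least 5 CPM in the higher genotype and all libraries apart, and the 5 largest clone differences each way. Not every list member it took is described: those that kept their call under the alternatives were preferred, a choice made after their values were seen. A few other members are given because a list turns on them.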

Additional observations from a re-analysis of the deposited data

Results flagged for a closer look

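Only members of the gene lists and the other named genes were scanned for a change of side between runs. For 8 of them, both MD clones lay on one side of both R42A clones in the second run and on the other side in the first. How many of all tested genes did so was not counted. The log2 changes in the second run were -0.12 for Socs2, 1.21 for Pou3f3, -0.15 for Flna, 0.22 for Pdgfrb, 0.20 for Peg12, -0.54 for Id1, 0.15 for Rb1 and -0.11 for Bub3. In the first run they were 0.23, -0.52, 0.16, -0.68, -0.21, 0.26, -0.11 and 0.08. They were selected by their opposite sign, which was not itself tested in that selection; in the edgeR fit of both runs the difference was called for none of the 22679 genes.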

How the results depend on the processing

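With single libraries as replicates, 8527 genes were called (4385 higher, 4142 lower), and with a replicate block 9002 (4618 and 4384). Such a replicate block also gave 2550 calls between the MD clones and 2064 between the R42A clones. The numbers were not taken as pairing the samples, since that asked for a correlation of deviations over 0.1 in every pair with the same number and 13 of 18 had one. All pairs of number 2 (0.151 to 0.322) and number 3 (0.125 to 0.35) did, and 10 of 12 libraries correlated best with their own number, a hint from the data only. Leaving out a clone or library gave 2127 to 5290 calls (1138 to 3030 higher, 989 to 2383 lower), and without one replicate the MD clones gave 161 to 1545 and the R42A clones 12 to 205. DESeq2 called 1206 between the R42A clones and 7 for the difference between runs. Scaling each chromosome separately turned the sign for Smarce1 (-0.27), Smarcd2 (-0.18), Nanog (0.0849), Cdh1 (0.0885), Zrsr1 (-0.0654), Top2a (-0.0038) and Ccng1 (-0.069), which lie on chromosome 8 or 11 but for Nanog on 6. Without a clone or library, values ran from -0.19 to 0.13 for Nanog, -1.13 to 0.28 for Ifit3, -0.0274 to 0.15 for Stat2 and -1.46 to 1.48 for Usp18. Usp18 was also at 0.0123 with library size scaling, 0.13 with chromosome scaling and 0.0049 with voom. The cause was not tested. At levels under 1 CPM counts are few and folds imprecise.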

Other observations

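Some called genes lay next to each other. On the X chromosome 10 neighbours around Rhox2a were all higher, with a median log2 change of 3.79. They were Rhox genes, which are homeobox genes of placenta and germ cells, and the pseudogene Dppa3-ps. The Rhox genes are near-identical copies that share reads. Whether Dppa3-ps shares reads with Dppa3, which was also higher, was not tested. On chromosome 4, 6 neighbours from Ube2j1 to Gm11934 were higher, with a median of 1.16, and on chromosome 13, 5 histone genes from Hist1h3c to Hist1h4b, with a median of 1.09. The longest lower run held 10 genes from Pcdhga7 to Pcdhga11 on chromosome 18 (median -1.27). Other lower runs included 7 genes from Csad to Espl1 on chromosome 15 (median -0.64) and 5 from Hoxa3 to Hoxa9 on chromosome 6 (median -2.30). A further run held 5 genes around Tbx3 on chromosome 5 (median -1.36). Among them were the antisense genes Tbx3os1 and Tbx3os2, whose reads cannot be told from those of Tbx3 without strand. Runs were found by scanning called genes and carry no test.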
